A study of Mus musculus with 6 samples.

Results

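Glucose transport and glycolysis genes were followed in neurons of the preBötzinger complex (preBötC), the brainstem site that generates the breathing rhythm. The group holds 10 of the 49568 gene names in the deposited tables and was chosen by name: the glucose transporters Slc2a1 and Slc2a3 and the enzyme genes Hk1, Pfkp, Aldoa, Gapdh, Pgk1, Eno1, Pkm and Ldha. Each of the 6 samples pooled 15 neurons picked by micropipette from slices of 1 mouse at postnatal day 2, and each sample came from a different mouse of either sex. All mice, in both groups, carried Dbx1CreERT2 and Rosa26tdTomato and came from dams given tamoxifen during gestation, which switches on red fluorescence in cells descending from Dbx1-expressing progenitors. Fluorescent neurons gave the 3 Dbx1 samples, and neuronal somata without fluorescence gave the 3 non-Dbx1 samples, so a Dbx1-derived neuron that did not recombine would be counted as non-Dbx1. Values are RPKM, the reads of a gene divided by its exon length and by the reads on all genes of the sample, without further scaling between samples.

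Glycolysis splits glucose into pyruvate in the cytosol and yields ATP without oxygen. Slc2a1 (GLUT1) is the glucose transporter of the blood-brain barrier and glia and Slc2a3 (GLUT3) that of neurons. Most steps have several isoenzymes, some of them typical of neurons, such as enolase 2, and many of these genes have processed pseudogenes, copies made from messenger RNA that keep nearly the same letters.

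All 10 genes were detected in 6 of 6 samples, from Aldoa at 188 RPKM to Gapdh at 1.75 RPKM (means over 6 samples). None differed between Dbx1 and non-Dbx1 neurons at a false discovery rate (FDR) under 0.1, and none at an unadjusted p under 0.05 (limma on log2(RPKM + 1), two-sided). The lowest FDR among them was 0.912. Across all 17614 genes tested, 0.00568% passed the FDR threshold and 5.2% had an unadjusted p under 0.05. Hif1a, which the authors' test of counts called higher in Dbx1 neurons, had a limma FDR of 0.708 here. The absence of a call in this fit therefore does not show equal levels. The log2 fold change, Dbx1 minus non-Dbx1 (L2FC), was above 0 for 6 of the 10 (60.0%) and below 0 for 4, beside 50.83% above 0 among all genes tested, and its median was 0.032 beside 0.0089.

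The sequences of these genes limit what the levels mean, because a read that aligns to several places was not counted under the counting tool's default. Every 50-base stretch of each gene's principal transcript was looked up in the transcripts of all other annotated genes. The Gapdh stretch below is printed because no 50-base stretch of the Gapdh coding sequence is unique and none occurs in more genes than this one. It lies in 1 exon at chr6:125162898-125162947 on the minus strand (GRCm38, the build also called mm10), bases 415 to 464 of the coding sequence, and occurs unchanged in 84 other annotated genes, 75 of which share at least 20 stretches with Gapdh.
Gapdh coding 415 to 464: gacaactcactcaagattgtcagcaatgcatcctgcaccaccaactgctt

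The next pairs are the start of the coding sequence of Pkm and of Ldha, each above the copy with the highest RPKM, with the differing letters in capitals and positions counted from 1 at the first base shown. They are printed because few letters separate gene and copy. The Pkm stretch is at chr9:59665213-59665302 on the plus strand, and Gm6560 is a processed pseudogene at chr5:22724578-22726168 on the minus strand. They differ by A24G alone, and 17 of the 41 possible 50-base reads in this window are the same in both.
Pkm coding 1 to 90: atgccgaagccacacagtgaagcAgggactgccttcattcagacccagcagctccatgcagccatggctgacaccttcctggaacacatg
Gm6560: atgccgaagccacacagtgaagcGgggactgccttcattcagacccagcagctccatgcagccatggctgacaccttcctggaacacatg

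The Ldha stretch is at chr7:46847620-46847709 on the plus strand, and Gm11814 is a processed pseudogene at chr4:10438815-10439743 on the minus strand. G48A and G52T are the only differences, but they lie so near the middle that 0 of the 41 reads are the same in both.
Ldha coding 1 to 90: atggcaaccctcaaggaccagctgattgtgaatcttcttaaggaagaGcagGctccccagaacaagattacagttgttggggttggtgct
Gm11814: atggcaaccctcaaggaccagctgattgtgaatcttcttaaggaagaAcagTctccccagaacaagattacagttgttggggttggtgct

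Aldoa is shown beside Gm5276 as a pair that every read in the window can tell apart. The Aldoa stretch spans 2 exons between chr7:126797511 and chr7:126797695 on the minus strand, and Gm5276 is a processed pseudogene at chr3:57362388-57363434 on the plus strand. The pair has 81 identical and 9 differing letters and shares 0 of the 41 reads.
Aldoa coding 61 to 150: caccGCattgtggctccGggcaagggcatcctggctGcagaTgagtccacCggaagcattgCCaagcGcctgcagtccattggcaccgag
Gm5276: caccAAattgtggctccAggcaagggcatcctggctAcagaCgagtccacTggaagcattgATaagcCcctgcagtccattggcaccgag

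Reads on genes ranged from 6464675 to 9432958 per sample. The 9 neuron markers (such as Tubb3 and Snap25) summed to between 1529 and 2345 RPKM and none was at 0 in all samples, so the neuronal label held. Erythroid markers summed to between 90.3 and 507 RPKM in Dbx1 samples and between 733 and 14084 RPKM in non-Dbx1 samples, with the highest sum in non-Dbx1 sample 1, as for oligodendrocyte markers (20.1 to 73.6 RPKM against 46.6 to 459 RPKM). Endothelial markers summed to between 0.168 and 1.03 RPKM in Dbx1 samples and to 3.95, 92.9 and 0.172 RPKM in non-Dbx1 samples 1, 2 and 3. Astrocyte markers (40.9 to 76.0 RPKM against 64.8 to 91.2 RPKM) and pericyte markers (0.571 to 1.33 RPKM against 0.102 to 3.04 RPKM, Kcnj8 at 0 throughout) overlapped between groups, as did microglial markers (0.202 to 29.2 RPKM against 14.6 to 44.4 RPKM), of which Tmem119 and Itgam were at 0 throughout. The part of these cells in the results below was not tested. A value given without a sample leaves out all of that sample, not these cells alone.

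**Figure D1:**
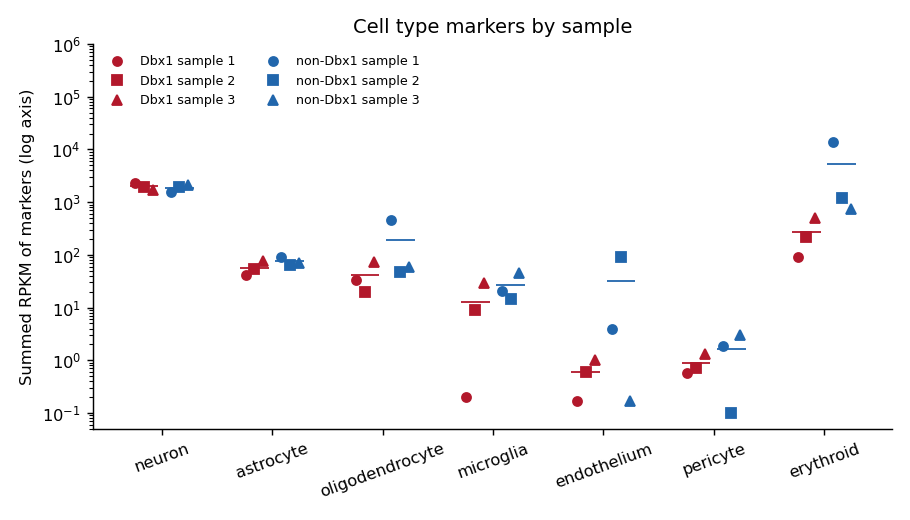
Summed RPKM (log axis) of the marker genes of 7 cell types in each sample, with Dbx1 samples in red, non-Dbx1 samples in blue, and a horizontal line at each group mean. Neuron markers lie between 1529 and 2345 RPKM in every sample, while non-Dbx1 sample 2 stands apart for endothelium (92.9 RPKM) and non-Dbx1 sample 1 for erythroid markers (14084 RPKM).

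Slc2a3 (ENSMUSG00000003153, chr6:122727809-122742745, minus strand), the neuronal glucose transporter, measured 14.1, 23.5 and 14.9 RPKM in Dbx1 samples 1, 2 and 3. It measured 12.5, 5.48 and 10.4 RPKM in non-Dbx1 samples 1, 2 and 3. The lowest Dbx1 value exceeded the highest non-Dbx1 value, and Slc2a3 was the only one of the 10 genes whose groups did not overlap. Among all genes tested, 10.6% had groups that did not overlap, 5.35% with Dbx1 higher and 5.24% with non-Dbx1 higher, so 1 gene in 10 was near the background. The means were 17.5 ± 5.2 and 9.45 ± 3.6 RPKM (SD, n = 3 each), with an L2FC of 0.85 ± 0.39 (SE). Its 95% confidence interval ran from -0.031 to 1.74, and the difference did not pass the threshold (limma FDR = 0.912, unadjusted p = 0.057). Without non-Dbx1 sample 2, where the gene was lowest, the L2FC was 0.54.

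Slc2a1 (ENSMUSG00000028645, chr4:119108711-119137983, plus strand), the transporter of endothelium and glia, measured 6.03, 4.72 and 2.86 RPKM in the Dbx1 samples. The non-Dbx1 samples measured 3.05, 5.82 and 1.54 RPKM, so the groups overlapped (L2FC = 0.38 ± 0.57, limma FDR = 0.964). The highest value of all was in Dbx1 sample 1, where the endothelial markers had their lowest sum, 0.168 RPKM. The highest non-Dbx1 value was in sample 2, the sample with the endothelial markers, where Cldn5, a tight junction gene of brain endothelium, measured 63.7 RPKM and Ly6c1 19.0 RPKM. Of the 8 endothelial markers 6 were highest in that sample. In pooled cells, fewer cells of a type and less RNA per cell cannot be told apart. Without that sample the L2FC of Slc2a1 was 0.74, and without non-Dbx1 sample 3 it was 0.033. Slc16a1, a lactate transporter chosen after its values were seen, was also highest in non-Dbx1 sample 2 at 15.1 RPKM, beside 0.130 to 6.27 RPKM in the other 5 samples.

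Hk1 (ENSMUSG00000037012, chr10:62269104-62379908, minus strand), the hexokinase that traps glucose in brain cells, measured 29.4, 30.6 and 18.6 RPKM in Dbx1 samples. The non-Dbx1 samples measured 15.8, 17.7 and 22.5 RPKM, and Dbx1 sample 3 lay among them (L2FC = 0.45 ± 0.30, 95% confidence interval -0.23 to 1.13, limma FDR = 0.936). Pfkp (ENSMUSG00000021196, chr13:6579768-6648777, minus strand), the platelet type phosphofructokinase of the committed step, measured 34.1, 72.7 and 87.6 RPKM in Dbx1 samples and 84.6, 71.1 and 49.1 RPKM in non-Dbx1 samples. The lowest and the highest Pfkp values were both in Dbx1 samples. Its L2FC was -0.14 ± 0.38 (limma FDR = 0.981).

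Aldoa (ENSMUSG00000030695, chr7:126795234-126799254, minus strand) encodes an aldolase, which cuts the sugar phosphate into triose phosphates. It measured 228, 195 and 151 RPKM in Dbx1 samples and 159, 188 and 207 RPKM in non-Dbx1 samples, with both extremes in Dbx1 samples (L2FC = 0.038 ± 0.24, limma FDR = 0.991). Gapdh (ENSMUSG00000057666, chr6:125161854-125165773, minus strand), the glyceraldehyde phosphate dehydrogenase often used as a reference gene, measured 2.22, 2.17 and 0.754 RPKM in Dbx1 samples and 2.16, 1.67 and 1.50 RPKM in non-Dbx1 samples. These values rest on 50 to 168 reads per sample, and the groups overlapped (L2FC = -0.078 ± 0.54, limma FDR = 0.992).

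Pgk1 (ENSMUSG00000062070, chrX:106187100-106203699, plus strand), phosphoglycerate kinase, had the smallest spread of the 10 on the deposited scale. It measured 7.14, 6.84 and 6.81 RPKM in Dbx1 samples and 6.91, 7.47 and 7.62 RPKM in non-Dbx1 samples, on 162 to 261 reads each. The SD within groups was 0.052 on the log2 scale, while counting reads alone would give about 0.10, and 0.573% of the genes tested had a smaller SD. It was 0.041 after scaling by median-of-ratios size factors and 0.114 after quantile normalization, where Pkm had the smallest at 0.078. The 95% confidence interval of its L2FC, -0.87 to 0.73 around -0.071 (limma FDR = 0.990), was wide beside these values, since limma draws the spread of each gene toward that of genes of like level.

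Eno1 (ENSMUSG00000063524, chr4:150236952-150248879, plus strand), the enolase found in most tissues, measured 20.8, 16.6 and 11.0 RPKM in Dbx1 samples and 15.7, 18.2 and 12.7 RPKM in non-Dbx1 samples (L2FC = 0.025 ± 0.33, limma FDR = 0.995). Pkm (ENSMUSG00000032294, chr9:59656368-59679375, plus strand), the muscle and brain pyruvate kinase, measured 73.2, 68.2 and 60.0 RPKM in Dbx1 samples and 49.2, 62.1 and 61.6 RPKM in non-Dbx1 samples. Only Dbx1 sample 3 fell within the non-Dbx1 range of Pkm (L2FC = 0.22 ± 0.22, 95% confidence interval -0.28 to 0.72, limma FDR = 0.952). Ldha (ENSMUSG00000063229, chr7:46845839-46855627, plus strand), whose subunit favours the making of lactate from pyruvate, measured 99.5, 163 and 53.2 RPKM in Dbx1 samples and 114, 126 and 72.8 RPKM in non-Dbx1 samples. Its highest and lowest values were both in Dbx1 samples (L2FC = -0.090 ± 0.41, limma FDR = 0.990).

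**Figure D2:**
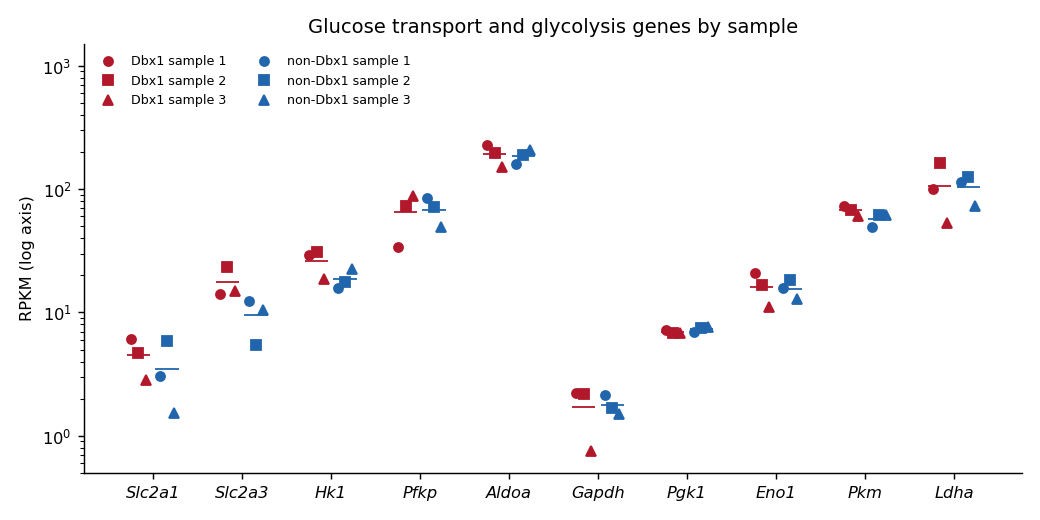
RPKM (log axis) of the 10 genes in each sample, with Dbx1 samples in red, non-Dbx1 samples in blue, and a horizontal line at each group mean. The red and blue points interleave for every gene but Slc2a3, and Pgk1 lies between 6.81 and 7.62 RPKM in all 6 samples.

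The highest sample was 4.28 times the lowest for Slc2a3, 3.92 times for Slc2a1 and 3.07 times for Ldha, and 1.12 times for Pgk1, 1.49 times for Pkm and 1.51 times for Aldoa. For 7 of the 10 the SD within groups was below that of the median gene tested, and the median SD was 0.364 beside 0.551 (log2 scale). Dbx1 sample 1 held the highest value of 5 genes (Slc2a1, Aldoa, Gapdh, Eno1 and Pkm) and Dbx1 sample 3 the lowest of 5 (Aldoa, Gapdh, Pgk1, Eno1 and Ldha). Neuron markers summed to 2345 RPKM in Dbx1 sample 1, the highest of the 6, with 1232 RPKM from Tubb3 and 2 of 9 markers highest there. The sum was 1669 RPKM in Dbx1 sample 3, and the lowest was in non-Dbx1 sample 1. The part of the neuron markers in the gene levels was not tested. Together the 10 genes took 0.461%, 0.547% and 0.413% of the reads on genes in Dbx1 samples and 0.450%, 0.469% and 0.415% in non-Dbx1 samples. The group means were 0.474 ± 0.068% and 0.444 ± 0.027% (SD, n = 3 each). Their difference was smaller than the SD of the Dbx1 samples but not that of the non-Dbx1 samples (exact permutation p = 0.7, two-sided, smallest possible 0.1).

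**Figure D3:**
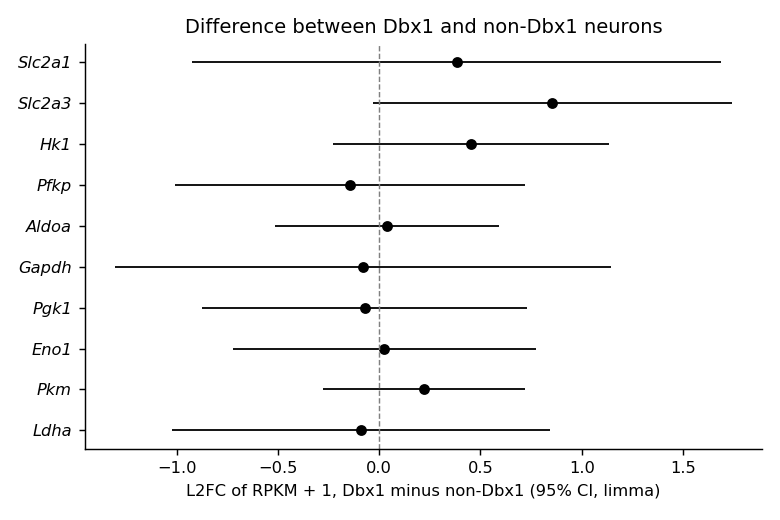
L2FC of the 10 genes on the log2(RPKM + 1) scale, Dbx1 minus non-Dbx1, as points with 95% confidence intervals from limma and a dashed line at 0. All intervals cross 0, and that of Slc2a3 (-0.031 to 1.74) crosses it least.

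In order of mean log2(RPKM + 1), the levels per exon length ran Aldoa (188 RPKM), Ldha (105), Pfkp (66.5), Pkm (62.4), Hk1 (22.4), Eno1 (15.9), Slc2a3 (13.5), Pgk1 (7.13), Slc2a1 (4.003) and Gapdh (1.75). Of the 9 neighbouring pairs, 4 kept their order in 6 of 6 samples, namely Aldoa over Ldha, Pkm over Hk1, Pgk1 over Slc2a1 and Slc2a1 over Gapdh. For each of these the exact sign-change permutation p was 0.03125, the smallest 6 samples allow, and 0.0703 after adjustment over the 9 pairs. No neighbouring pair therefore differed at an adjusted p under 0.05. With the smallest p that 6 samples allow, a pair alone cannot reach that level over 9 pairs, however large its gap. The adjusted values therefore do not show that neighbours had like levels. Pfkp and Pkm were least apart, with Pfkp higher in 4 of 6 samples (exact permutation p = 0.969).

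The length used for RPKM was much longer than a transcript for each of the 10. It was 1.90 times the principal transcript for Slc2a1, 1.99 for Pgk1, 3.10 for Slc2a3, 5.51 for Aldoa and 6.71 for Gapdh, where 9527 bases stood against a transcript of 1420. Lengths were also compared over 9580 genes with several transcripts and enough reads, whose reads were not whole with the merged exon length. Genes where the merged length fitted were left out, so a difference from it was fixed by this choice. The median was 1.49 times the merged exon length. It was 1.04 times the summed length of all distinct exons, overlapping ones counted repeatedly, and 17.3% of these genes equalled that sum. How the length was built is not settled by this, but a longer length gives a lower RPKM for the same reads.

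The share of 50-base stretches that also occur in other genes was 82.5% for Gapdh, 72.2% for Eno1, 67.96% for Pgk1, 34.4% for Pkm, 19.1% for Ldha, 17.1% for Pfkp, 13.9% for Aldoa, 1.74% for Slc2a1 and 0 for Slc2a3 and Hk1. For Pfkp and Slc2a1 these were genes overlapping at the same place, and for the others mostly copies elsewhere. For Gapdh 0 of 950 coding stretches and for Pgk1 0 of 1202 were unique, so no such stretch within their coding sequence belonged to a single gene. Gapdh had 144 copies sharing at least 20 stretches, 136 of them named in the deposited tables.

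Reads divided by the length of uniquely matching stretches gave another order: Aldoa, Ldha, Pkm, Pfkp, Eno1, Hk1, Gapdh, Pgk1, Slc2a3 and Slc2a1. Aldoa and Ldha led on both scales. Gapdh moved from the last place to 69.3, in the same unit as RPKM and 39.7 times the deposited value, and Eno1 rose 15.2-fold to 241, while Slc2a1 rose 1.96-fold to 7.85. On this scale Slc2a3, at 42.3, came below Gapdh and Pgk1 (45.5), and of the 9 neighbouring orders on the RPKM scale 5 held.

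**Figure D4:**
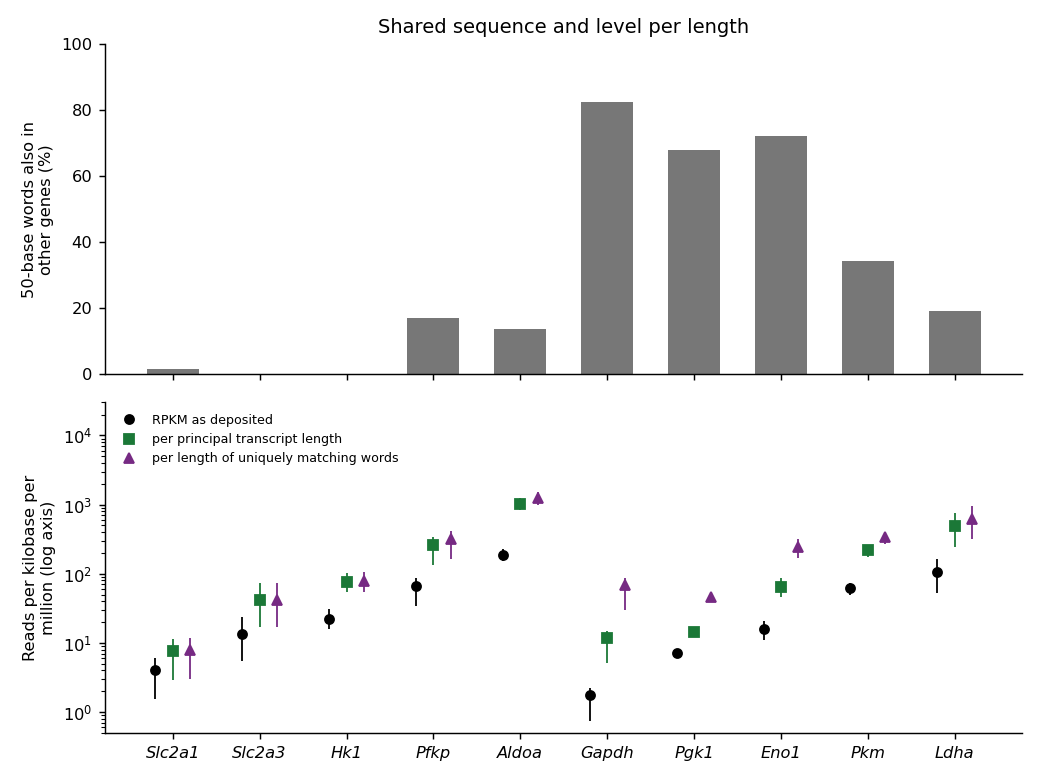
Upper plot, the percent of 50-base stretches (words) of each principal transcript that also occur in other annotated genes; lower plot, the mean level over 6 samples with its range (vertical lines) per exon length as deposited (black), per transcript length (green) and per uniquely matching length (purple), on a log axis. The gap between black and purple is widest for Gapdh (82.5% shared, 39.7-fold) and Eno1 (72.2%, 15.2-fold).

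The copies themselves carried reads. Those on the 136 listed Gapdh copies summed to between 278 and 506 per sample, 2.59 to 5.56 times the reads on Gapdh itself. The copy with the highest mean, Gm29668, owed it to 14.7 RPKM in non-Dbx1 sample 1 and was at 0 in 4 samples. Eno1b, which shares 1395 of the 1978 stretches of Eno1, measured 41.6, 24.8 and 13.3 RPKM in Dbx1 samples and 16.3, 27.7 and 21.3 RPKM in non-Dbx1 samples, above the RPKM of Eno1 in 6 of 6. In reads it was below Eno1 in each sample, at 0.219 to 0.420 times, and its RPKM was also below Eno1 per transcript length (mean 65.3) in each. Gm6560 averaged 56.9 RPKM, above the RPKM of Pkm in 2 of 6 samples, but held 0.117 to 0.207 times the reads of Pkm and was below Pkm per transcript length (mean 219) in 6 of 6. Gm5276 averaged 54.8 RPKM and 0.0298 to 0.0400 times the reads of Aldoa, and Gm11814 averaged 19.6 RPKM and 0.0165 to 0.0267 times the reads of Ldha. Pgk1-rs7, which shares 1206 stretches with Pgk1, held at most 1 read in any sample. Among the copies with the highest mean RPKM per gene, the lowest limma FDR was 0.960. Gm29668 was not among the genes tested, and the FDR of the other copies was not examined. Whether the reads on copies came from messenger RNA of the 10 genes was not tested.

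Isoenzyme shares, which do not depend on scaling between samples, were compared at 6 steps. Slc2a3 made up 70.0%, 83.3% and 83.9% of the RPKM of the transporter pair in Dbx1 samples and 80.3%, 48.5% and 87.1% in non-Dbx1 samples. It was the larger part in 5 of 6 samples, and the exception was non-Dbx1 sample 2, with the endothelial markers. Hk1 was the main hexokinase in every sample, at 71.0% to 99.1%. Among phosphofructokinases Pfkp made up 23.96% to 49.8% in the 6 samples, beside Pfkm, the muscle type, at 77.9 RPKM on average. Aldoa held 42.3% to 49.6%, beside Aldoc, the brain aldolase, at 223 RPKM on average.

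Eno1 ranked between Eno2 and Eno3 in each sample, at 23.6%, 17.6% and 13.7% in Dbx1 samples and 23.6%, 27.4% and 18.3% in non-Dbx1 samples. Ldha varied between samples, at 33.1%, 59.2% and 26.4% in Dbx1 samples and 47.1%, 59.2% and 26.6% in non-Dbx1 samples, beside Ldhb, the heart type subunit, at 146 RPKM on average. Ldha exceeded Ldhb in sample 2 of each group alone. No difference in share between groups passed the test. The smallest exact permutation p was 0.3, for Eno1 with a difference of -4.79 percentage points, the adjusted p was at least 0.96 over the 6 shares, and 3 against 3 samples cannot go below 0.1. The statement of which isoenzyme led depended on the length: per principal transcript, mean shares were 62.9% for Pfkp, 56.2% for Aldoa and 63.4% for Ldha, each above that of the other isoenzymes together, beside 35.5%, 45.3% and 41.9% by RPKM. Slc2a3 (82.8%), Hk1 (93.3%) and Eno1 (18.7%) stayed on the same side by transcript length. Per uniquely matching length the mean share of Eno1 was 44.8%, from 34.1% to 55.6%, and Eno1 was above Eno2 in 2 of 6 samples. The other mean shares on that scale were 82.6% for Slc2a3, 93.2% for Hk1, 67.0% for Pfkp, 59.9% for Aldoa and 61.0% for Ldha.

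**Figure D5:**
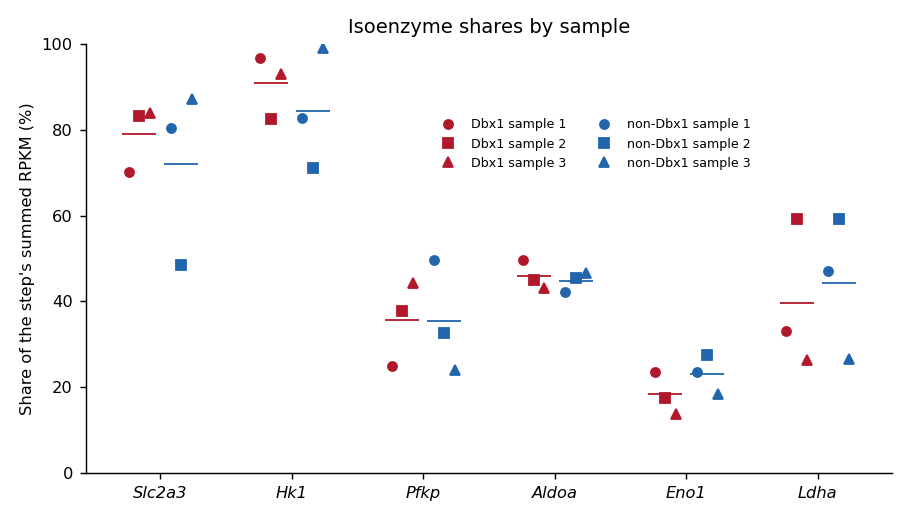
Share (%) of each gene in the summed RPKM of its step, by sample, with Dbx1 samples in red, non-Dbx1 samples in blue, and a horizontal line at each group mean. The groups overlap at all 6 steps, and Slc2a3 in non-Dbx1 sample 2 (48.5%) lies apart from the other 5 samples (70.0% to 87.1%).

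A list of 76 further genes of glucose metabolism, from other transporters to the pentose phosphate route and glycogen, held 61 that could be tested. Of these 33 had an L2FC above 0 and 28 below, and none passed an FDR of 0.1. At an unadjusted p under 0.05, 1 was higher in Dbx1 samples and 3 in non-Dbx1 samples, beside 2.73% and 2.48% of all genes tested. Pck2, the mitochondrial enzyme that makes phosphoenolpyruvate, measured 8.58, 6.84 and 12.9 RPKM in Dbx1 samples and 2.41, 3.13 and 0.998 RPKM in non-Dbx1 samples (L2FC = 1.74 ± 0.51, limma FDR = 0.804). Pgm2, a phosphoglucomutase, measured 52.0, 35.7 and 51.6 RPKM against 70.9, 125 and 69.6 RPKM (L2FC = -0.88 ± 0.30, limma FDR = 0.900).

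Pgam2, the muscle phosphoglycerate mutase, had an L2FC of -1.51 ± 0.53 on as few as 8 reads, and Taldo1, transaldolase of the pentose phosphate route, -0.72 ± 0.31 (limma FDR = 0.912 for both). Eno2, the neuronal enolase, measured 65.7, 72.1 and 59.1 RPKM in Dbx1 samples and 44.0, 39.7 and 54.8 RPKM in non-Dbx1 samples. Its groups did not overlap, and it missed the threshold (L2FC = 0.51 ± 0.23, unadjusted p = 0.055, limma FDR = 0.912). Of the 61 that could be tested, 3 were higher in every Dbx1 sample (Eno2, Pck2 and G6pdx) and 4 in every non-Dbx1 sample (Pgm2, Pgam2, Taldo1 and Pgls). Both counts were near the background of 5.35% and 5.24% among all genes tested. G6pdx and Pgls were named after their values were seen.

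Triosephosphate isomerase (Tpi1) averaged 184 RPKM, phosphoglucose isomerase (Gpi1) 55.6 RPKM and Bpgm, the most abundant gene of the mutase step, 13.8 RPKM, and their groups overlapped. Slc5a1, a sodium-coupled glucose transporter of gut and kidney, and Ldhc, the lactate dehydrogenase of testis, were listed at 0 in all 6 samples.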

How the data were processed

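RNA of 6 samples of 15 neurons was amplified (SMART-Seq), aligned by the authors to mm10 with TopHat2, sorted with SAMtools and counted per gene with HTSeq without regard to strand. The authors divided the counts by exon length and reads on genes, and the deposited values are RPKM. The annotation release is not given in the sources used here. The 10 genes, the pathway list and the marker lists were chosen with earlier results of these data known.

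Log2(RPKM + 1) of the 17614 genes above 0 in at least 3 samples was tested with limma 3.58.1 (lmFit, eBayes with trend, R 4.3.3) and Benjamini-Hochberg adjustment over all of them. The authors tested counts with a count model. RPKM is no count, so the log scale was used. Shares and sums were tested with exact two-sided permutations and neighbouring levels with exact sign changes (scipy 1.17.1). The fit was tested on simulated data.

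Whole reads were recovered from the steps between RPKM values (98.75% to 99.12% of reads on genes). Where no annotated length fitted, the lowest whole counts matching the values to within 0.002 were taken. Limits from reads cover counting error only, since amplified molecules are not independent. Copies came from 50-base stretches of GENCODE vM21 transcripts (GRCm38). Genes named beyond the 10 were the isoenzyme with the highest mean RPKM of each step and those with an unadjusted p under 0.05. Others were those at 0 throughout, markers that moved with a gene, and the copy with the highest mean RPKM per gene. Hif1a and Pgam1 were added after their values were seen. Alternatives were other pseudocounts, filters and scalings, no trend, a replicate block, limma-voom on recovered reads, and each sample left out. Lengths of the transcript and log ratios of isoenzymes were also tried, the transcript lengths being chosen after the data were seen.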

Additional observations from a re-analysis of the deposited data

How the results depend on the processing

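No alternative moved any of the 10 genes or the 76 further genes past an FDR of 0.1, and the lowest FDR of the 10 ranged from 0.784 to 1.0. With all samples kept, a gene was classed as unchanged by its direction and side of the threshold, and a count only by staying near the main count. By these rules 214 of the values under alternatives were unchanged and 1 was not: by uniquely matching length, 5 of 9 neighbouring orders of level were kept. By transcript length 8 of the 9 were kept, and the cause was not tested. Slc2a3 had an L2FC between 0.54 and 1.07 and stayed above 0 in all, and it was the 1 gene of the 10 at an unadjusted p under 0.05 with quantile normalization, with limma-voom and without non-Dbx1 sample 1.

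Leaving out 1 sample at a time turned the sign of 8 named genes, none of them called. The L2FC ranged from -0.41 to 0.26 for Pfkp, from -0.098 to 0.20 for Aldoa, from -0.23 to 0.21 for Gapdh, from -0.17 to 0.26 for Eno1 and from -0.47 to 0.33 for Ldha. It ranged from -0.071 to 0.063 for Aldoc, from -0.23 to 0.25 for Tpi1 and from -0.10 to 0.50 for Ldhb. The number of the 10 genes with an L2FC above 0 ranged from 5 to 8. The difference in share, in percentage points, ranged from -4.64 to 14.6 for Slc2a3, from -0.162 to 13.9 for Hk1, from -5.55 to 7.34 for Pfkp, from -0.745 to 2.46 for Aldoa and from -14.6 to 2.71 for Ldha. The cause was not tested.

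With the replicate number as a block, 0 of the 10 genes passed, the L2FC of Slc2a3 was 0.85 and the lowest FDR was 0.98. Same-numbered samples came from different mice and their deviations did not move together (correlations -0.107, 0.025 and -0.052), so the numbers gave no pairing. With 3 samples a group, intervals as wide as those of Slc2a1 (-0.92 to 1.69) and Gapdh (-1.30 to 1.15) leave room for changes in either direction. Counting error was largest for Gapdh among the 10, about 0.138 on the log2 scale at 50 to 168 reads.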
